A study of Mus musculus with 20 samples.

Results

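Expression of 7 transcription factor genes named for the neural crest and the dorsal neural tube was followed in trunk-like structures that mouse embryonic stem cells formed in culture. The genes, taken by symbol from the deposited abundance tables, were Sox10, Foxd3, Tfap2a, Tfap2b, Ets1, Zic1 and Zic2, 7 of the 54446 gene IDs listed. Each of 5 groups was measured by bulk RNA sequencing in 3 libraries, which the labels call biological replicates, so 15 libraries carried the results. All groups came from F1G4 mouse embryonic stem cells with the reporters T::H2B-mCherry and Sox2::H2B-Venus, freed of feeder cells, and all received 3 µM CHIR99021 (an activator of WNT signalling) after 48 h of aggregation. The group 96h was collected at 96 h with 10 structures pooled per library. The other groups were collected at 120 h with 6 structures per library: Gastruloid (the established protocol without Matrigel), TLSMG (in Matrigel, a basement membrane gel), TLSMGC (in Matrigel with CHIR99021 added) and TLSMGCL (as TLSMGC, but with LDN, which blocks BMP receptors, also present). Each group stems from 1 reporter cell line, and structures were picked for an asymmetric pole before pooling, so a library averages picked structures.

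Neural crest cells arise at the border of the neural plate, where WNT, BMP and FGF signals induce border genes, then crest specifiers, and finally genes of migration and of derivatives such as melanocytes, glia and peripheral neurons. Foxd3 and Sox10 mark the early and the migrating crest, Tfap2a and Tfap2b act from the border onwards, and Ets1 takes part in delamination of the cranial and cardiac crest. Of these, Ets1 is also a regulator of endothelium and blood, and Zic genes are also expressed in dorsal neural tube, somites and, for Zic2, in early epiblast. Transcript levels of whole structures were measured, so fewer cells of a type and less RNA per cell cannot be told apart.

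Levels are in TPM, a length-corrected abundance scaled to the same total in every library, and a listed 0 can be a failed estimate. Depth, judged from the coverage that 1 FPKM stood for, varied 2.19-fold over the libraries. A gene was tested only if its mean over the 15 libraries reached 1 TPM, which 14290 genes did, and log2 differences were taken on log2(TPM + 1), which understates the change of low genes. Of the 7 genes, Ets1, Zic1 and Zic2 were tested. Sox10, Foxd3, Tfap2a and Tfap2b stayed below that mean, so the defining crest transcripts were near 0 in these bulk libraries. In the comparisons of TLSMG with 96h, Gastruloid, TLSMGC and TLSMGCL the median gene itself lay 0.14, 0.13, 0.16 and 0.18 log2 units higher in TLSMG.

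Of the 60 values of the 4 low genes, 22 were listed at 0, 3 reached 1 TPM, and the highest was 1.29 TPM. Sox10 (ENSMUSG00000033006.10, GRCm38 chr15:79154908-79165240, minus strand), which encodes the SOXE factor required for glia and melanocytes, was at 0.130, 0.249 and 0.0554 TPM at 96h, 0.220, 0.311 and 0.368 TPM in Gastruloid and 0.0984, 0.409 and 0.154 TPM in TLSMG. With CHIR99021 it was at 0.203, 0 and 0 TPM in TLSMGC and listed at 0 in all 3 TLSMGCL libraries. Its level thus stayed under 0.5 TPM everywhere, and the TLSMG, Gastruloid and 96h ranges overlapped. Foxd3 (ENSMUSG00000067261.4, chr4:99656299-99658622, plus strand), a forkhead repressor of early crest and of the pluripotent epiblast, was highest at 96h with 1.29, 0.702 and 0.762 TPM. It was at 0.281, 0.342 and 0.361 TPM in Gastruloid and 0.399, 1.20 and 0.276 TPM in TLSMG. In TLSMGC it was at 0.0429, 0 and 0.0912 TPM and in TLSMGCL at 0.0284, 0.0590 and 0 TPM. Every library with added CHIR99021 lay below every library without it. The AP-2 genes were lower still in the mean over all 15 libraries, at 0.118 TPM for Tfap2a and 0.0824 TPM for Tfap2b. Sox10 averaged 0.146 TPM and Foxd3 0.389 TPM. Within TLSMG, the means of Tfap2a (0.344 TPM) and Tfap2b (0.402 TPM) exceeded that of Sox10 (0.220 TPM). Tfap2a (ENSMUSG00000021359.16, chr13:40715302-40738376, minus strand) ranged from 0 to 0.77 TPM, with its highest value in TLSMG replicate 2 and 4 libraries at 0. Tfap2b (ENSMUSG00000025927.13, chr1:19208914-19238576, plus strand) was listed at 0 in 11 of 15 libraries and above 0.1 TPM in TLSMG replicate 2 alone, at 1.12 TPM.

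**Figure D1:**
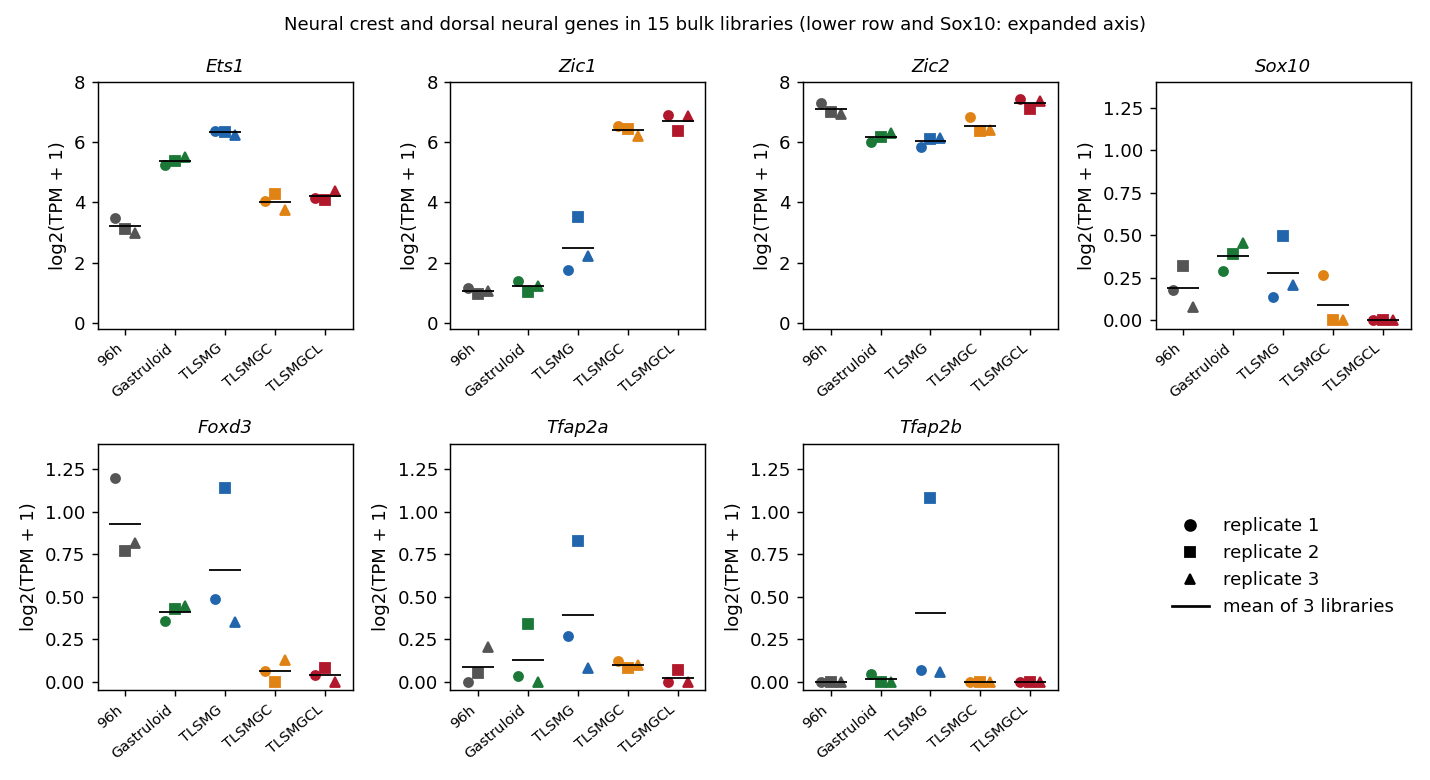
Level, as log2(TPM + 1), of each of the 7 genes in the 15 bulk libraries, by group on the x axis; symbols are replicates, horizontal lines are means of 3, and the axis is expanded for Sox10, Foxd3, Tfap2a and Tfap2b. Sox10, Tfap2a, Tfap2b and Foxd3 stay at or below 1.29 TPM, Ets1 is highest in TLSMG, Zic1 is high in both CHIR99021 groups, and Zic2 is lowest in Gastruloid and TLSMG.

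These 4 genes enter a test only when no minimum level is set, and then Foxd3 alone passed in any comparison. Under that setting its log2 difference from 96h was -0.86 (adjusted p = 0.00272) in TLSMGC and -0.89 (adjusted p = 0.0024) in TLSMGCL by limma, and 21.3% and 20.7% of the 29971 genes passed in those comparisons. With any single library of the compared groups left out as well, both stayed past the threshold (adjusted p 0.00512 to 0.0137). Gastruloid against 96h gave -0.52 (adjusted p = 0.0453), TLSMGC against TLSMG -0.60 (adjusted p = 0.0243) and TLSMGCL against TLSMG -0.62 (adjusted p = 0.0188), where 22.1%, 20.8% and 22.9% of genes passed. These 3 calls were lost on leaving out 1 library: any of the 6 in Gastruloid against 96h (adjusted p up to 0.173), any TLSMGC library against TLSMG (up to 0.0751) and TLSMGCL replicate 3 against TLSMG (0.0556). It did not pass in TLSMG against 96h, -0.27 (adjusted p = 0.297), in TLSMG against Gastruloid, 0.25 (adjusted p = 0.372), or in TLSMGCL against TLSMGC, where 25.7%, 18.1% and 0.470% of genes passed. Without TLSMG replicate 2 the difference in TLSMG against 96h passed, at -0.51 (adjusted p = 0.00568). Without that library Foxd3 differed from TLSMG by -0.36 (adjusted p = 0.0428) in TLSMGC and by -0.38 (adjusted p = 0.0308) in TLSMGCL. Markers of pluripotent cells (Pou5f1, Nanog, Zfp42 and Esrrb) summed to 103 to 168 TPM at 96h, 72.2 to 106 TPM in Gastruloid, 39.1 to 47.7 TPM in TLSMG and 12.8 to 29.7 TPM in the CHIR99021 groups. The 96h and Gastruloid sums overlapped. Of the 4 markers only Pou5f1 passed in Gastruloid against 96h, with a log2 difference of -0.98 ± 0.25 (SE; adjusted p = 0.00643). The part of pluripotent cells in the Foxd3 values was not tested.

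Replicate 2 of TLSMG stood apart for several dorsal genes, which was noticed after the values were seen. Zic1 and Tfap2b lay at least 1 log2(TPM + 1) unit above both other TLSMG libraries there, 2 of the 7 genes, while 55 of 54446 gene IDs did so (0.101%), a share within the 0.0551% to 0.13% of the other libraries. Only 29971 gene IDs had any value, and those at 0 in every library cannot stand apart, which lowers these shares. Among listed genes the same library was high for Neurog1, a proneural gene of sensory neurons, at 0.200, 3.71 and 0.469 TPM in replicates 1 to 3. It was also high for Olig3, a gene of dorsal progenitors, at 0.0977, 3.49 and 0.776 TPM, and for the roof plate gene Wnt1, at 0.272, 1.50 and 0.360 TPM. Sox10, Foxd3 and Tfap2a were highest in that library within the group too. Whether the pooled structures differed in dorsal tissue was not tested. Tests of Zic1 in comparisons with TLSMG are given with and without this library, as are those of Foxd3 except against Gastruloid. Tests between other groups share the spread estimated with this library and are not given without it.

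**Figure D2:**
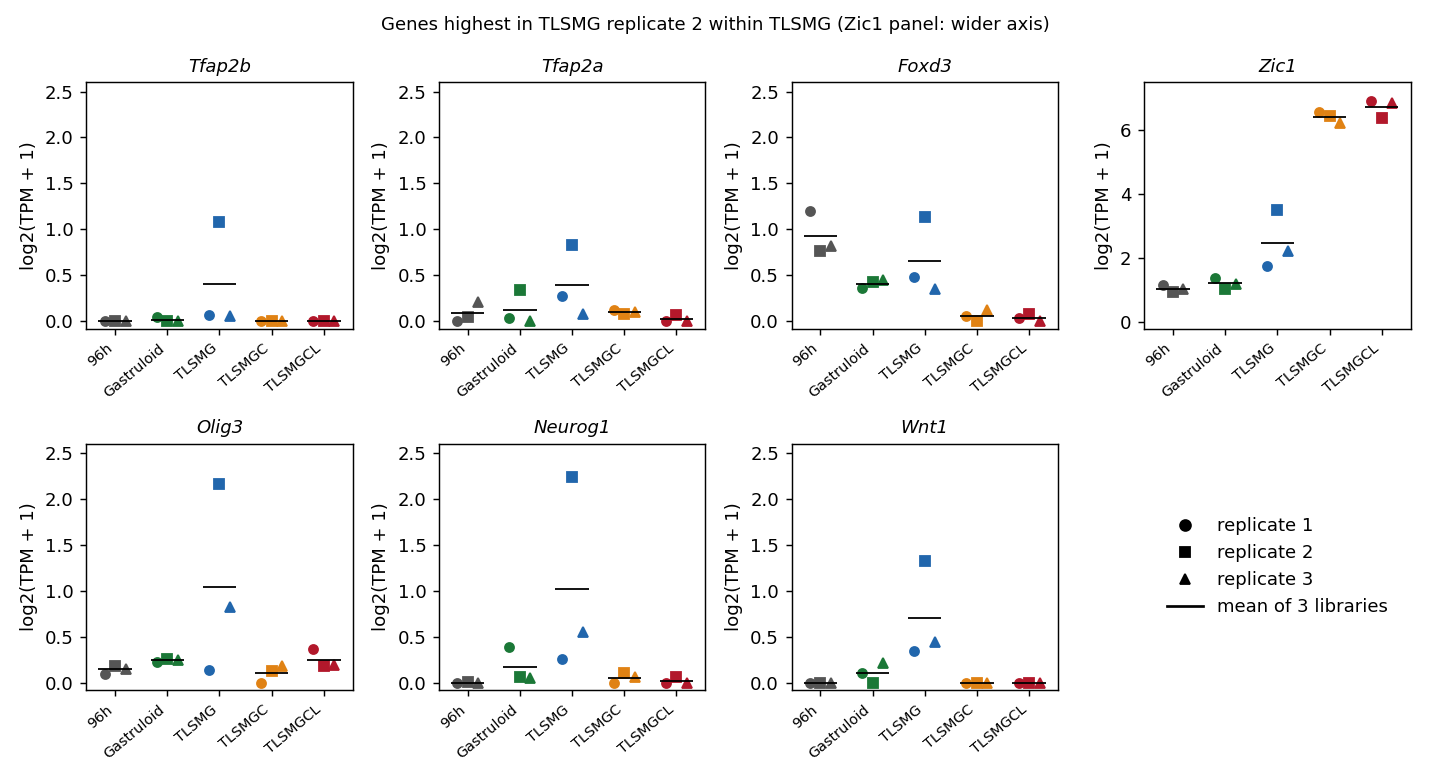
Level on the log2(TPM + 1) scale of dorsal and crest genes in the 15 libraries, by group, with replicates as separate symbols, lines for means of 3 and a wider axis for Zic1. The squares of TLSMG, replicate 2, are the highest of that group for all 7 genes shown, and without that library Tfap2b stays near 0 in every group.

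Among the 3 tested genes, 2 changed in Gastruloid against 96h, where 41.2% of all tested genes did. All 3 changed in TLSMG against 96h (46.0% of genes) and in TLSMGC against 96h (40.7%), and 2 did in TLSMGCL against 96h (39.5%). At 120 h, 2 changed in TLSMG against Gastruloid (39.3%), all 3 in TLSMGC against TLSMG (40.9%) and all 3 in TLSMGCL against TLSMG (44.9%). In TLSMGCL against TLSMGC, which differ by LDN, only Zic2 passed, and 1.18% of genes did. Tests were by limma with Benjamini-Hochberg adjustment, two-sided. Comparisons that share a group share its libraries, and with background shares near 40% in all but the last comparison, a count of 2 or 3 does not set these genes apart. Their order across groups did differ: Ets1 peaked in TLSMG, Zic1 in the CHIR99021 groups, and Zic2 at 96h and in TLSMGCL.

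**Figure D3:**
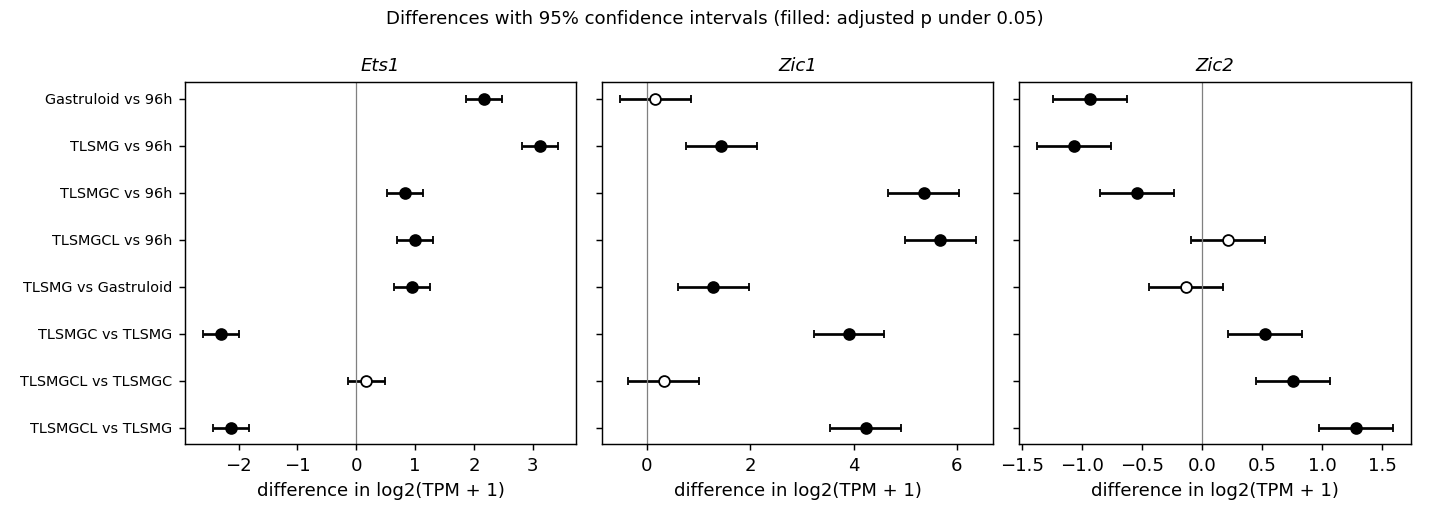
Log2 difference of Ets1, Zic1 and Zic2 in the 8 comparisons, on the log2(TPM + 1) scale, with 95% confidence intervals from limma. Ets1 and Zic1 lie on opposite sides of 0 when either CHIR99021 group is set against TLSMG, and only Zic2 is past the threshold in TLSMGCL against TLSMGC.

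Ets1 (ENSMUSG00000032035.15, chr9:32636221-32757820, plus strand), which encodes an ETS-domain activator, rose from 96h to both groups without added CHIR99021 and was highest in Matrigel. Its levels were 10.2, 7.74 and 7.00 TPM at 96h and 36.8, 40.5 and 45.0 TPM in Gastruloid. In TLSMG they were 83.1, 79.9 and 75.8 TPM. In TLSMGC they were 15.6, 18.4 and 12.5 TPM and in TLSMGCL 16.6, 16.0 and 19.8 TPM. Only TLSMGC and TLSMGCL overlapped; the other groups were separated in the order 96h, CHIR99021 groups, Gastruloid, TLSMG. The mean of 79.6 ± 3.65 TPM (SD, n = 3) in TLSMG was 9.58 times that of 8.31 ± 1.66 TPM at 96h, a log2 difference of 3.13 ± 0.14 (SE; adjusted p = 1.7e-09). Against Gastruloid (40.8 ± 4.13 TPM) TLSMG was 1.95 times as high, a log2 difference of 0.95 ± 0.14 (SE; adjusted p = 0.000378). Gastruloid itself lay above 96h by 2.18 ± 0.14 (SE; adjusted p = 5.61e-08). With CHIR99021 in the Matrigel culture, Ets1 fell from TLSMG to 15.5 ± 2.97 TPM in TLSMGC, a log2 difference of -2.30 ± 0.14 (SE; adjusted p = 7.47e-08), and in TLSMGCL (17.5 ± 2.05 TPM) the difference from TLSMG was -2.13 ± 0.14 (SE; adjusted p = 1.33e-07). Both remained above 96h, by 0.82 ± 0.14 (SE; adjusted p = 0.000461) in TLSMGC and by 1.00 ± 0.14 (SE; adjusted p = 0.000102) in TLSMGCL. Addition of LDN gave a difference of 0.17 ± 0.14 (SE; adjusted p = 0.675) with a 95% interval of -0.14 to 0.48, which did not pass.

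Fli1, an ETS gene of endothelium and blood that lies 93359 bases from Ets1, shared the peak in TLSMG. Its means were 2.05 TPM at 96h, 7.68 TPM in Gastruloid, 17.8 TPM in TLSMG, 2.77 TPM in TLSMGC and 1.54 TPM in TLSMGCL (n = 3 each). The ratio of Ets1 to Fli1 ranged from 8.86 to 14.9 in the TLSMGCL libraries and from 3.81 to 8.94 in those of TLSMGC. It ran between 4.26 and 4.72 in TLSMG, between 5.05 and 5.71 in Gastruloid and between 3.61 and 4.72 at 96h. The TLSMGC range thus spanned most of the others and met that of TLSMGCL. Endothelial transcripts moved with Ets1 in several groups. A list of 10 endothelial markers (Kdr, Cdh5, Pecam1, Tie1, Tek, Cldn5, Sox18, Flt1, Erg and Emcn) summed to 6.62 to 10.7 TPM at 96h, 35.4 to 45.5 TPM in Gastruloid and 276 to 343 TPM in TLSMG. It summed to 23.1 to 86.8 TPM in TLSMGC and 12.3 to 21.1 TPM in TLSMGCL, and the part of this tissue in the Ets1 level was not tested. Within TLSMGC, replicate 2 had the highest sum. It lay at least 1 log2 unit above both others for 3 of the 18 genes of a wider endothelial list, namely Tie1, Sox17 and Tal1. That was 16.7%, against 0.123% of all gene IDs, those without any value included. These genes were chosen after their values were seen. Fli1 was at 2.10, 4.82 and 1.39 TPM in the 3 TLSMGC libraries. Without that library Ets1 differed from TLSMG by -2.43 (adjusted p = 2e-07) in TLSMGC. Kdr, the main receptor of VEGF-A, averaged 5.80 TPM in Gastruloid and 95.3 TPM in TLSMG, a log2 difference of 3.83 ± 0.36 (SE; adjusted p = 2.44e-05). In Gastruloid against 96h, where Ets1 also rose, 8 of the 10 markers rose and none fell, with a median log2 difference of 1.53 against 0.00 over all genes. Cldn5, a tight junction gene of endothelium, rose there by 3.24 ± 0.25 (SE; adjusted p = 2.75e-07) and Cdh5 by 2.52 ± 0.34 (SE; adjusted p = 5.1e-05), while the Kdr libraries of these groups overlapped. Of the 18 genes of the wider list, all of which were tested, 16 rose and none fell in TLSMG against Gastruloid, with a median log2 difference of 2.21 against 0.13 over all genes. In TLSMGC against TLSMG 16 fell and 1 rose, with a median of -2.08 against -0.16.

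The genes closest to Ets1 across the 15 libraries, among 9756 genes with a mean of at least 5 TPM, were Meox2 (Pearson r 0.990 on log2(TPM + 1)), Micall2 (0.985) and Ppp1r9b (0.982). These are descriptions over libraries that share 5 group levels. Meox2, a homeobox gene of somites, averaged 2.05, 15.8, 30.9, 5.93 and 6.74 TPM in the order 96h, Gastruloid, TLSMG, TLSMGC, TLSMGCL, the same order of groups as Ets1. Other somite markers did not share this order. Of 5 such markers, 1 rose and 2 fell in TLSMG against Gastruloid. Meox2 differed by 0.93 ± 0.18 (SE; adjusted p = 0.0016), Pax1 by -1.82 ± 0.14 (SE; adjusted p = 8.59e-06) and Tcf15 by -0.77 ± 0.18 (SE; adjusted p = 0.00499). The part of somite tissue in the Ets1 level was not tested. The correlation of Ets1 with Cdh5, the endothelial cadherin, was 0.868, with Kdr 0.808 and with Fli1 0.921.

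**Figure D4:**
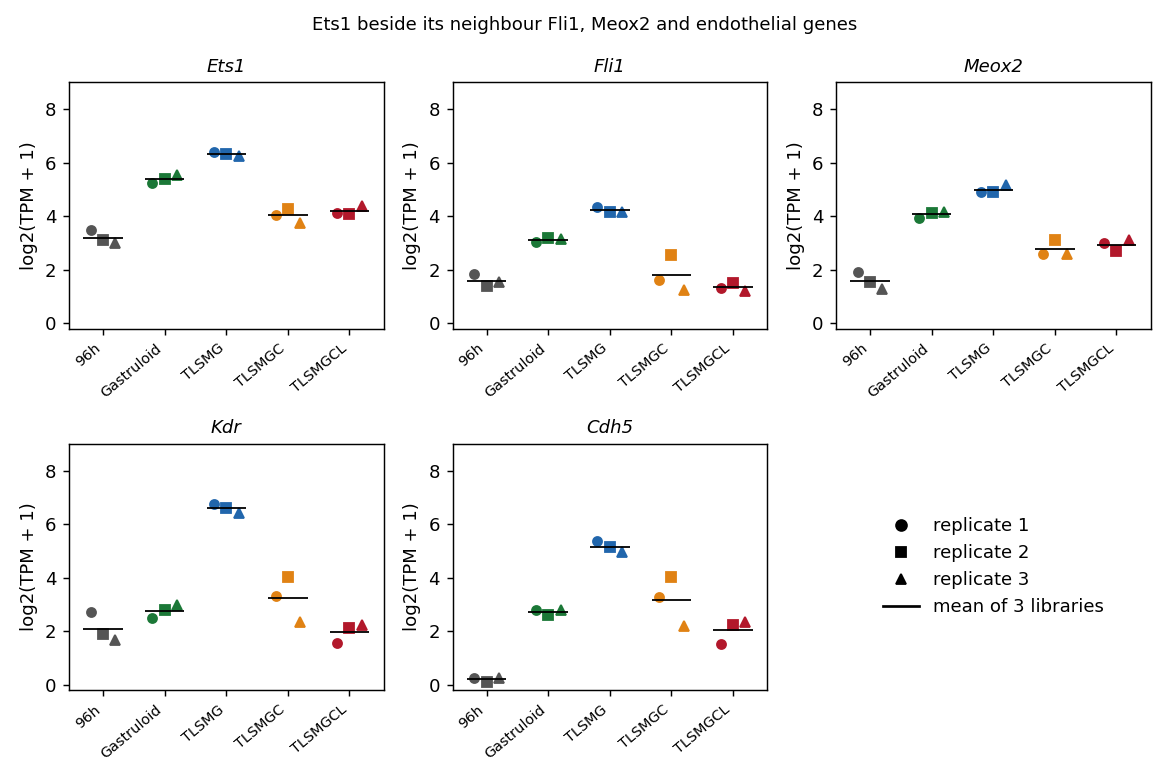
Ets1 with its neighbour Fli1, the somite gene Meox2 and the endothelial genes Kdr and Cdh5, on the log2(TPM + 1) scale in 15 libraries; symbols are replicates and lines are means of 3. All peak in TLSMG, and in Gastruloid Ets1, Fli1, Meox2 and Cdh5 stand above every 96h library, while the Kdr libraries of these groups overlap.

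Zic1 (ENSMUSG00000032368.14, chr9:91358058-91365810, minus strand), a zinc finger gene of the dorsal neural tube, border and somites, was highest where CHIR99021 was added to the Matrigel culture. Its levels were 1.24, 0.916 and 1.07 TPM at 96h, 1.62, 1.05 and 1.32 TPM in Gastruloid and 2.37, 10.4 and 3.65 TPM in TLSMG. In TLSMGC they were 93.4, 85.8 and 73.3 TPM and in TLSMGCL 120.0, 83.1 and 116 TPM. The CHIR99021 groups overlapped each other and no other group. The mean of 84.2 ± 10.1 TPM (SD, n = 3) in TLSMGC was 15.4 times the 5.47 ± 4.30 TPM of TLSMG, a log2 difference of 3.91 ± 0.32 (SE; adjusted p = 7.69e-07), and 78.2 times the 1.08 ± 0.162 TPM at 96h. In TLSMGCL the mean of 106 ± 20.2 TPM was 19.4 times that of TLSMG, a log2 difference of 4.23 ± 0.32 (SE; adjusted p = 3.02e-07). The TLSMG mean rests on replicate 2, and without it these log2 differences were 4.42 (adjusted p = 1.34e-08) in TLSMGC and 4.74 (adjusted p = 7.1e-09) in TLSMGCL. The log2 difference from 96h was 5.35 ± 0.32 (SE; adjusted p = 2.8e-08) in TLSMGC and 5.68 ± 0.32 (SE; adjusted p = 1.42e-08) in TLSMGCL. Addition of LDN moved it by 0.32 ± 0.32 (SE; adjusted p = 0.737), with a 95% interval of -0.36 to 1.01, which did not pass.

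Without added CHIR99021, Zic1 rose in TLSMG by 1.44 ± 0.32 (SE; adjusted p = 0.00222) against 96h and by 1.28 ± 0.32 (SE; adjusted p = 0.00662) against Gastruloid. Without TLSMG replicate 2 these differences were 0.94 (adjusted p = 0.00154) and 0.77 (adjusted p = 0.00808), so the direction and call held with a smaller value. Gastruloid against 96h gave 0.16 ± 0.32 (SE; adjusted p = 0.717). Zic4, which overlaps Zic1 by 3398 bases on the opposite strand, followed it. Zic4 was at most 0.164 TPM at 96h and 0.157 TPM in Gastruloid, 0.391, 1.74 and 0.101 TPM in TLSMG, 8.83, 6.65 and 7.35 TPM in TLSMGC and 10.4, 5.23 and 9.12 TPM in TLSMGCL. Its log2 difference in TLSMGC against TLSMG was 2.41 ± 0.28 (SE; adjusted p = 1.82e-05), or 2.79 (adjusted p = 1.97e-06) without TLSMG replicate 2, and its correlation with Zic1 over 15 libraries was 0.990. The libraries were made with a stranded kit, but whether counting used the strand is not given in the sources used here, so reads in the shared stretch may not have been assigned to the right gene. Other genes closest to Zic1 were Col4a5 (r 0.974), a basement membrane collagen chain, Acsl3 (0.967), a fatty acid activating enzyme, and Slc25a48 (0.966), a mitochondrial carrier.

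The bases before the start sites of the Zic genes that moved are shown because Zic1 and Zic4 rose together with an activator of WNT signalling while Zic5 did not pass in TLSMGC against TLSMG, with a log2 difference of 0.25 ± 0.18 (SE; adjusted p = 0.3). They are from RefSeq, build GRCm38.p6, 250 bases ending at the start, read on the gene's strand: Zic1 chr9:91365769-91366018 (minus strand, 66.0% G or C), Zic4 chr9:91368722-91368971 (plus strand, 44.4%) and Zic5 chr14:122465659-122465908 (minus strand, 62.4%). Capitals mark the GC box, GGGCGG.
Zic1: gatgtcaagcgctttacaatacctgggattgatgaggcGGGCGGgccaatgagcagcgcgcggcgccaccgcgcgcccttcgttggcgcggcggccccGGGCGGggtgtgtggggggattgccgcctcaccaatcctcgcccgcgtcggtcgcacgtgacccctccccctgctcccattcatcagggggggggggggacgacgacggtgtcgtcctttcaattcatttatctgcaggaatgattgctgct
Zic4: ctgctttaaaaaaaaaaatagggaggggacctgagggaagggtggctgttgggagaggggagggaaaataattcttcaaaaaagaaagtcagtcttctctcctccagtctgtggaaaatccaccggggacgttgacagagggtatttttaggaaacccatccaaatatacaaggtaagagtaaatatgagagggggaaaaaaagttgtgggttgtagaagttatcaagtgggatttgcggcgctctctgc
Zic5: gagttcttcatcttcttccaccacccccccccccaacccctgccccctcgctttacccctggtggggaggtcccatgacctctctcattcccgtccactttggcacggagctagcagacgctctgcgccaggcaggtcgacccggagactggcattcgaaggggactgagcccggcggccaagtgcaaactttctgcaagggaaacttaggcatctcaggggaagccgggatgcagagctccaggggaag
Motifs were searched on both strands as exact letters: the TCF/LEF site of WNT target genes (CTTTGAA, or the form CTTTGAT, or the form CTTTGTA, or the form CTTTGTT), the GC box (GGGCGG), the CCAAT box (the letters of its name) and the TATA box (TATAAA). The Zic1 stretch held 2 GC boxes, starting at -212 and -152 from the start site, and 2 CCAAT boxes, at -205 and -121, and no TCF/LEF or TATA letters. The Zic4 and Zic5 stretches held none of the 4 motifs. Of 32817 promoter stretches of the same length, 14.8% held the TCF/LEF letters, 32.7% the GC box, 33.8% the CCAAT box and 12.4% the TATA box. The bases just after these starts were found in 1 of 3 GENCODE M21 transcripts of Zic1, 3 of 12 of Zic4 and 1 of 2 of Zic5. All 3 starts lie inside the genes as measured (Zic1 chr9:91358058-91365810, Zic4 chr9:91362413-91389348 and Zic5 chr14:122456795-122465677), so none is the gene's outermost start. Other starts of these genes were not searched. These matches describe the letters only.

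Zic2 (ENSMUSG00000061524.8, chr14:122475435-122479852, plus strand), a zinc finger gene of epiblast and dorsal neural tube, was the most abundant of the 7 genes at 96h. Its levels were 157, 129 and 124 TPM at 96h, 63.4, 71.2 and 78.7 TPM in Gastruloid and 56.0, 68.3 and 70.1 TPM in TLSMG. They were 115, 82.3 and 85.1 TPM in TLSMGC and 174, 137 and 166 TPM in TLSMGCL. Gastruloid and TLSMG overlapped and lay below the other groups, and TLSMGCL lay above TLSMGC and overlapped 96h. From 96h (137 ± 18.0 TPM, SD, n = 3) Zic2 fell in Gastruloid (71.1 ± 7.67 TPM) with a log2 difference of -0.93 ± 0.14 (SE; adjusted p = 0.000166) and in TLSMG (64.8 ± 7.69 TPM) with -1.07 ± 0.14 (SE; adjusted p = 4.57e-05). TLSMG and Gastruloid differed by -0.13 ± 0.14 (SE; adjusted p = 0.488). In TLSMGC (94.2 ± 18.2 TPM) the difference from 96h was -0.54 ± 0.14 (SE; adjusted p = 0.00816) and that from TLSMG 0.52 ± 0.14 (SE; adjusted p = 0.0102). In TLSMGCL (159 ± 19.6 TPM) the difference from TLSMG was 1.28 ± 0.14 (SE; adjusted p = 1.07e-05), and that from 96h was 0.22 ± 0.14 (SE; adjusted p = 0.255), which passed (0.35, adjusted p = 0.0492) with a correction for GC content and length.

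Zic2 was the only one of the 3 tested genes that changed with LDN, 1.69 times as high in TLSMGCL as in TLSMGC, a log2 difference of 0.76 ± 0.14 (SE; adjusted p = 0.0223). The call was lost with no minimum level (0.0561), with only these groups in the fit (0.153), and without TLSMGC replicate 2 (0.102), TLSMGC replicate 3 (0.0609), TLSMGCL replicate 1 (0.100) or TLSMGCL replicate 3 (0.0796), while the log2 difference stayed between 0.67 and 0.91 with any library left out. Zic5, its neighbour on the opposite strand at a gap of 9757 bases, was the gene closest to Zic2 (r 0.967), followed by Lrig1 (0.939), a receptor tyrosine kinase inhibitor. Zic5 was at 23.6, 17.8 and 16.3 TPM at 96h, 7.37, 10.2 and 9.99 TPM in Gastruloid, 8.82, 9.15 and 9.99 TPM in TLSMG, 14.6, 9.46 and 10.3 TPM in TLSMGC and 23.1, 15.5 and 20.9 TPM in TLSMGCL. The ratio of Zic2 to Zic5 stayed between 6.34 and 8.83 in all 15 libraries. With LDN, Zic5 differed by 0.75 ± 0.18 (SE; adjusted p = 0.0766), which did not pass.

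**Figure D5:**
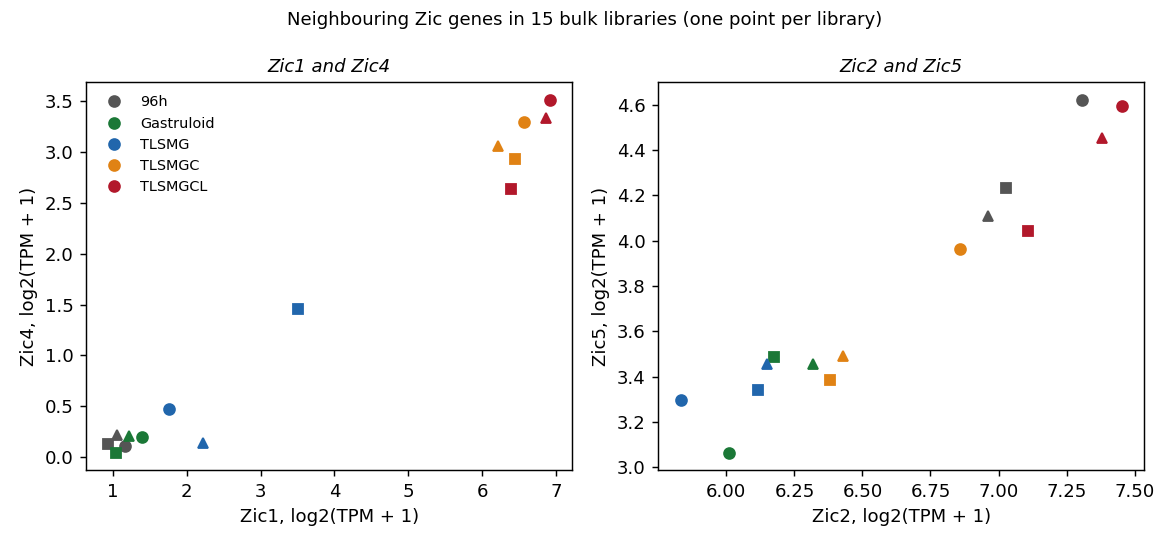
Level of neighbouring Zic genes on the log2(TPM + 1) scale, one point per library, with circles, squares and triangles for replicates 1, 2 and 3. On the left, Zic1 and Zic4 are both high in the 6 CHIR99021 libraries and intermediate in TLSMG replicate 2; on the right, Zic2 and Zic5 are both lowest in Gastruloid and TLSMG.

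Relatives of the low genes were better represented. Sox9, a SOXE gene of crest, cartilage and neural progenitors, averaged 18.9 TPM at 96h, 18.8 TPM in Gastruloid and 18.3 TPM in TLSMG, and fell to 3.13 TPM in TLSMGC, a log2 difference from TLSMG of -2.22 ± 0.13 (SE; adjusted p = 3.68e-08). Sox8 was highest in TLSMG, at 3.75 TPM, against 2.53 TPM in Gastruloid and 1.06 TPM at 96h. Tfap2c, an AP-2 gene of surface ectoderm and germ cells, averaged 4.24 TPM in TLSMG and 1.30 TPM in TLSMGC, a log2 difference of -1.19 ± 0.20 (SE; adjusted p = 0.000365). Tfap2d was listed at 0 in all 15 libraries and Tfap2e in 13. So SOX9 and AP-2γ transcripts were present where Sox10, Tfap2a and Tfap2b were near 0, and they were lower with CHIR99021.

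Genes of crest specification and migration were described from a list of 20, of which 18 were tested. In TLSMG against 96h, 12 rose and 3 fell, with a median log2 difference of 1.20 against 0.14 over all genes. After median-of-ratios scaling, which moves the median gene to 0, 10 rose and 3 fell. The largest rises were in genes also expressed widely in mesoderm and neural tissue: Nr2f1 by 4.52 ± 0.19 (SE; adjusted p = 6.54e-10), Nr2f2 by 3.64 ± 0.21 (SE; adjusted p = 1.43e-08), both orphan nuclear receptors, and Cdh11, a mesenchymal cadherin, by 2.92 ± 0.20 (SE; adjusted p = 8.15e-08). The rise was not particular to TLSMG: in Gastruloid against 96h 12 also rose and 3 fell (median 0.81 against 0.00). The same genes led there, Nr2f1 at 3.91, Nr2f2 at 3.08 and Cdh11 at 2.91. In TLSMG against Gastruloid 8 rose and 2 fell (median 0.23 against 0.13), but 5 rose and 3 fell after median-of-ratios scaling, and 5 rose and 2 fell without TLSMG replicate 2. Among them was Snai2, a repressor of epithelial genes at delamination, which rose by 1.81 ± 0.20 (SE; adjusted p = 7.86e-05). In TLSMGC against TLSMG 2 rose and 13 fell (median -0.97 against -0.16), or 3 rose and 12 fell after median-of-ratios scaling. Of all tested genes 40.9% passed there, in either direction. Cdh6, an early crest and neural cadherin, was at -3.16 ± 0.15 (SE; adjusted p = 4.96e-09) and Ednrb, the endothelin B receptor, at -1.96 ± 0.28 (SE; adjusted p = 0.000108). LDN changed 2 of the 18 tested genes of the list: the BMP target Id3 by -1.73 ± 0.14 (SE; adjusted p = 4.73e-05) and Ngfr, the p75 neurotrophin receptor, by 0.89 ± 0.10 (SE; adjusted p = 0.000418).

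Of 14 border genes, 13 were tested, and they did not move one way: in TLSMG against 96h 5 rose and 5 fell, and in TLSMGC against TLSMG 3 rose and 4 fell, or 4 and 3 after median-of-ratios scaling. Msx1, a BMP-responsive homeobox gene, was higher in TLSMG than in Gastruloid by 2.33 ± 0.20 (SE; adjusted p = 1.34e-05) and lower with LDN by -1.16 ± 0.20 (SE; adjusted p = 0.0125). Of 25 genes of crest derivatives only 11 were tested. In TLSMGC against TLSMG 7 of them fell and none rose (median -0.81 against -0.16), or 6 fell and 2 rose after median-of-ratios scaling. Fabp7, a fatty acid binding protein of glia and neural progenitors, differed by -1.96 ± 0.44 (SE; adjusted p = 0.0033), and by -1.24 (adjusted p = 0.00236) without TLSMG replicate 2. Prph, an intermediate filament of peripheral neurons, differed by -1.56 ± 0.21 (SE; adjusted p = 6.72e-05).

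Of 22 roof plate and dorsal interneuron genes, 10 were tested. Markers of the roof plate (Lmx1a, Gdf7 and Wnt1) summed to at most 0.392 TPM at 96h, in Gastruloid and in the CHIR99021 groups and to 1.51 to 3.10 TPM in TLSMG. None of these markers reached the mean needed for a test. All 22 genes, Zic4 included, summed to 63.2 to 69.4 TPM in TLSMGC, 37.9 to 48.0 TPM in TLSMGCL and 57.7 to 69.3 TPM in TLSMG. They summed to 234 to 272 TPM at 96h and 21.6 to 31.3 TPM in Gastruloid. The part of the roof plate in the Zic1 level was not tested. In TLSMG against Gastruloid 6 of the 10 rose and none fell (median 0.56 against 0.13), or 4 rose and none fell after median-of-ratios scaling and 3 with FPKM, led by Lbx1, a homeobox gene of dorsal interneurons and migrating muscle precursors, at 3.54 ± 0.15 (SE; adjusted p = 2.89e-08). In TLSMGC against TLSMG 6 rose and 2 fell (median 0.68 against -0.16). The largest rise was that of Zic4, whose reads may in part be those of the overlapping Zic1. The 2 that fell were Lbx1, at -1.95 ± 0.15 (SE; adjusted p = 4.04e-07), and Wnt4, at -1.57 ± 0.17 (SE; adjusted p = 1.25e-05). With LDN none rose and 4 fell, including Pax2 by -2.42 ± 0.15 (SE; adjusted p = 6.43e-06) and Lmx1b by -1.07 ± 0.16 (SE; adjusted p = 0.00497). A list of neural tube markers (Sox1, Sox2, Sox3, Pax6, Irx3 and Olig2) summed to 359 to 495 TPM in Gastruloid and 194 to 287 TPM in TLSMG but to 43.8 to 72.0 TPM in the CHIR99021 groups. Somite markers (Meox1, Meox2, Tcf15, Uncx and Pax1) summed to 558 to 724 TPM in those groups, 517 to 711 TPM at 96h, 873 to 1014 TPM in Gastruloid and 720 to 859 TPM in TLSMG. These 5 did not move one way: in TLSMGCL against TLSMG 3 fell and 1 rose, Tcf15, by 1.26 ± 0.18 (SE; adjusted p = 0.000104). The part of either tissue in the Zic1 and Zic2 levels was not tested. Of 16 surface ectoderm genes 12 were tested, and in TLSMGC against TLSMG 10 fell and 1 rose (median -1.04 against -0.16). After median-of-ratios scaling 9 fell and 1 rose.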

How the data were processed

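Structures were profiled by bulk RNA sequencing of polyadenylated RNA in 15 libraries. Per the submitters' processing notes, cutadapt 2.4, STAR 2.7.3a, StringTie 2.0 and build mm10 were used; the annotation and the strand setting are not given in the sources used here. The deposited TPM and FPKM values and the deposited coverage came from StringTie gene tables, 1 per library, per the file headers. Lines of 1 gene ID were summed. No read counts were used, so neither intervals for single values nor detection limits were computed. Coverage per FPKM ran from 3.12 to 6.84. Of the 54446 gene IDs, 54409 are in GENCODE M21 and 53499 have the same start and end there.

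Groups were read from the labels. limma 3.58.1 (R 4.3.3) was fitted to log2(TPM + 1) of 14290 genes with a mean of at least 1 TPM, with 5 group means, a trended prior, Benjamini-Hochberg adjustment within each of 8 comparisons and a two-sided threshold of 0.05. The fit was tested on simulated data. Alternatives were a pseudocount of 0.1, no minimum or a minimum of 5 TPM, FPKM, median-of-ratios scaling, a replicate block and a GC content and length correction. Further ones were only the compared groups in the fit, and leaving out each library of the compared groups. Leaving out libraries with no minimum, for Foxd3, and the alternatives for the gene lists were chosen after seeing the data. The named genes were all 7 genes, their relatives, at most 3 genes per list and comparison with the largest absolute log2 difference among those past the threshold, and 3 genes per tested gene by Pearson r; Neurog1, Olig3, Wnt1, Kdr and Cdh5 were also named, some after their values were seen. Some genes under this rule are not reported here. The genes and lists were chosen with earlier results of these data known. Python 3.11.15 with numpy 2.4.6, pandas 2.3.3 and matplotlib 3.10.9 was used for tables and plots. 5 single-cell samples and the NanoString profiles were not analysed here.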

Additional observations from a re-analysis of the deposited data

How the results depend on the processing

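Of 24 tests of Ets1, Zic1 and Zic2, 19 passed. Over 336 values under the alternatives, 329 kept direction and side of the threshold, 6 lost the call, 1 gained it and 0 reversed. All 6 losses were Zic2 in TLSMGCL against TLSMGC, given above with the gain. For that comparison 1 of the 3 tested genes changed, and 0 did with no minimum TPM or with only the compared groups in the fit. This count ranged from 0 to 1 with a library left out. The number of all genes changed there was 169, but 277 with the GC content and length correction, 42 with only the compared groups, and 56 to 198 with a library left out (56 without TLSMGC replicate 2, 70 without TLSMGCL replicate 1 and 78 without TLSMGCL replicate 3). In TLSMG against Gastruloid it was 5622 and fell to 3284 with the GC content and length correction, where log2 differences correlated with GC content across genes (r -0.41); the cause was not tested. Median-of-ratios scaling brought the median gene to within 0.02 log2 units of 0 in every comparison, and turned the split of TLSMGC against TLSMG from 1490 higher and 4352 lower to 2741 and 2572.

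The labels give every group replicates 1 to 3, but same-numbered libraries did not deviate together: the mean correlation of their deviations was -0.02 over 30 pairs, with 1 over 0.1. With the replicate block, all 24 calls were as before, and the number of all genes changed in TLSMGCL against TLSMGC was 122. Without counts, the depth behind Sox10, Foxd3, Tfap2a and Tfap2b is not known per library, and a listed 0 sets no upper limit on their level.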
